A study of Homo sapiens with 36 samples.

Results

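HK-2 cells that had received Kbr at the lower of its doses for 24 h were set against cells that had received vehicle for 24 h. HK-2 is an immortalized human cell line from the proximal tubule, where the kidney recovers most filtered glucose, amino acids and salt. The samples were chosen by their labels, which gave 3 arrays of the treated cells and 3 of the vehicle cells, 6 of the 36 arrays in the series. The labels do not spell out the compound called Kbr and give its dose only as low or high. All groups were the same line in a medium with growth factor, insulin and hydrocortisone, treated close to confluence, and the controls received the vehicle alone. The other arrays used here were 3 of high Kbr at 24 h, which share the vehicle arrays of that time, and 3 of low Kbr at 48 h with 3 vehicle arrays of their own. The rest of the series held CdCl, Di and their vehicle cells at 12 h and 48 h. The series asked for expression signatures of kidney toxicity.

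Kidney tubule cells answer oxidants, metals and damaged proteins with a small number of transcription programmes. NRF2, held inactive by KEAP1, is freed when cysteines of KEAP1 are modified, binds antioxidant response elements and switches on genes for glutathione synthesis, thioredoxin and quinone reduction. HSF1 binds heat shock elements and raises chaperones of the cytosol, whereas the unfolded protein response raises chaperones of the endoplasmic reticulum. As a model, HK-2 has limits: it is a single line in flat culture, immortalized with papillomavirus genes, one of which directs p53 to degradation.

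Values are log2 expression as deposited, and each difference is low Kbr minus vehicle with the standard error (±) of the model, n = 3 arrays a group. That error pools the spread within all 12 groups of the series, so for some genes it is wider than the 6 arrays compared, and it can also be narrower. Genes passed at a limma Benjamini-Hochberg adjusted p under 0.05 over 11092 genes. With all arrays in the fit 1687 genes passed, against 933 with the Kbr set alone and 267 with only the compared groups. The labels call the replicates biological. In such bulk RNA, fewer cells of a type and less RNA per cell cannot be told apart. Of 29 proximal tubule markers only 7 rose above a log2 level of 4 on at least 3 arrays, CDH6, DPP4, SLC4A4, CLDN2, PDZK1, GATM and SLC3A1, so the labelled cell type was borne out in part. The beta-actin 3′ minus 5′ difference, a gauge of RNA integrity, was 0.97, 1.03 and 0.76 on the low Kbr arrays and 0.75, 1.12 and 0.73 on the vehicle arrays, which overlap. On the CdCl and Di arrays and their vehicle arrays, which share the pooled error, the beta-actin difference ran from 1.22 to 1.98. Arrays correlated with those of their own group at a mean r of 0.991 to 0.992 (low Kbr) and 0.988 to 0.989 (vehicle).

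Low Kbr at 24 h moved many genes by little. Of the 11092 genes, 1687 passed (15.2%), 769 higher (6.93%) and 918 lower (8.28%). Of those 1687, 964 (57.1%) differed by less than 1.5-fold, and the median size of their difference was 0.54. Differences of at least 2-fold were met by 192 genes, 35 higher and 157 lower. Beyond 4-fold there were 1 rise and 7 falls. The falls of 2-fold or more came from dimmer genes, with a median vehicle level of 6.71, against 7.66 for the rises of that size and 8.13 for all genes. The median difference over all genes was -0.01. In 1684 of the 1687 genes all 3 pairs of same-numbered arrays differed in one direction, as they did in 6977 of all 11092 genes (62.9%). Low Kbr and vehicle arrays did not overlap for 1530 of the 1687, and for 3359 of all genes (30.3%), 1674 above vehicle (15.1%) and 1685 below (15.2%). For the 1687 both counts follow largely from their choice on these same arrays and are no separate support.

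With the replicate number as a block the count was 2720 genes (24.5%), 1170 higher (10.5%) and 1550 lower (14.0%), among them all 1687. Without low Kbr replicate 3 it was 997, and without vehicle replicate 1 it was 824.

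**Figure D1:**
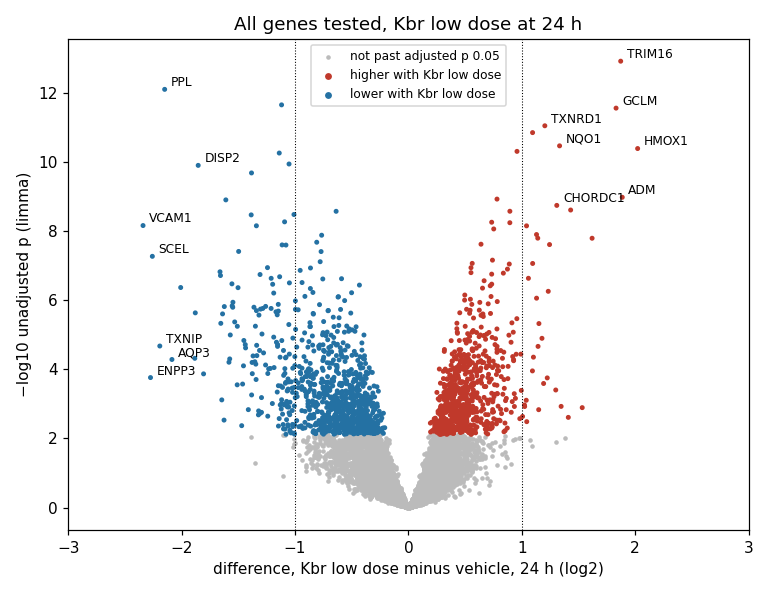
Each point is one of 11092 genes. The horizontal axis is low Kbr minus vehicle at 24 h in log2 units and the vertical axis is −log10 of the unadjusted limma p. Dotted lines mark a 2-fold difference. Coloured points are the 769 genes higher and 918 lower at an adjusted p under 0.05. VCAM1 lies farthest to the left, at -2.34, and HMOX1 farthest to the right, at 2.02.

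The largest rises were those of HMOX1, ADM, TRIM16, GCLM and GPAT3. HMOX1, haem oxygenase, which splits haem, stood at 9.65, 9.56 and 9.83 in low Kbr cells, against 7.71, 7.29 and 7.98 in vehicle cells. The groups are far apart, and HMOX1 was the only gene to rise by 4-fold (2.02 ± 0.19, 4.06-fold, adjusted p 5.70e-08). GCLM, the modifier subunit of the enzyme that starts glutathione synthesis, stood at 11.68, 11.52 and 11.72 in low Kbr cells, against 9.73, 9.46 and 10.23 in vehicle cells. Its fold was 3.56 (1.83 ± 0.15, adjusted p 7.71e-09), from a level that was already well above the median. TRIM16, a ubiquitin ligase active on damaged proteins, stood at 9.75, 9.63 and 9.77 in low Kbr cells, against 7.71, 7.70 and 8.12 in vehicle cells. It rose 3.66-fold (1.87 ± 0.14) and had the smallest adjusted p of the named rises, 1.35e-09.

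NQO1, a quinone reductase and a classic NRF2 target, stood at 12.47, 12.60 and 12.02 in low Kbr cells, against 11.00, 11.15 and 10.94 in vehicle cells. It was bright in both groups and rose 2.52-fold (1.33 ± 0.13, adjusted p 5.44e-08). TXNRD1, which keeps thioredoxin reduced and lay outside the 12 largest rises, stood at 12.82, 12.93 and 12.64 in low Kbr cells, against 11.56, 11.75 and 11.47 in vehicle cells. Here too the groups did not overlap (1.20 ± 0.11, 2.30-fold, adjusted p 2.00e-08). Both chains of the cystine importer rose, SLC7A11 by 1.53 ± 0.43 (adjusted p 0.0150) and its partner SLC3A2 by 1.30 ± 0.32 (adjusted p 0.00696). SLC7A11 missed the threshold without vehicle replicate 1 (adjusted p 0.0594).

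The other large rises had varied roles. ADM, a secreted vasodilator peptide, stood at 7.39, 7.54 and 8.29 in low Kbr cells, against 5.70, 5.94 and 5.93 in vehicle cells (1.89 ± 0.21, 3.69-fold, adjusted p 8.37e-07). Replicate 3 of low Kbr was its highest array. GPAT3, an acyltransferase of triglyceride synthesis, rose by 1.62 ± 0.21 and CHORDC1, a co-chaperone of HSP90, by 1.31 ± 0.15. The zinc finger gene ZSCAN31 rose by 1.43 ± 0.17. DGKG, a diacylglycerol kinase, rose by 1.41 ± 0.42 (adjusted p 0.0236) from a vehicle range of 4.18 to 4.93, close to the floor. GPATCH2L completes the 12 largest rises (1.35 ± 0.37), but only 4 of its 7 probe sets shared that sign and they ran from -0.18 to 1.35. DGKG missed the threshold without low Kbr replicates 1 or 3 or vehicle replicates 1 or 2, GPATCH2L without low Kbr replicate 3 or vehicle replicate 1.

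**Figure D2:**
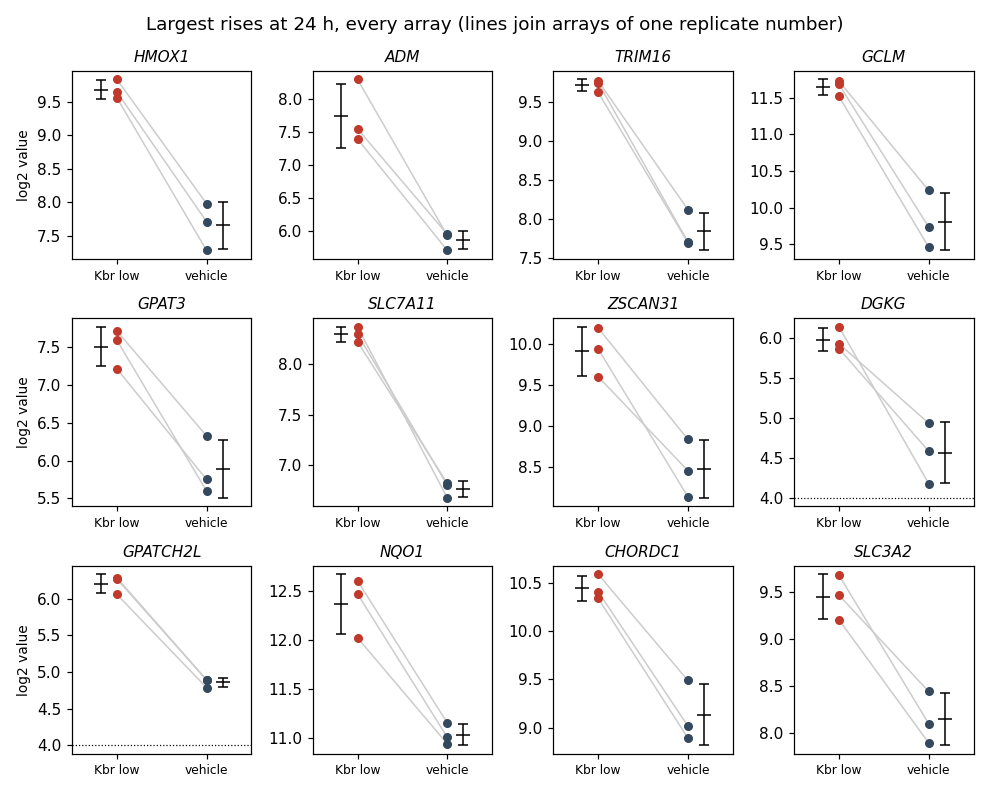
Log2 expression of the 12 largest rises, low Kbr arrays left of vehicle arrays for each gene, 1 point an array, lines joining arrays of one replicate number, and the mean ± SD of 3 beside them. Genes were chosen for arrays that do not overlap, so each lowest low Kbr array lies above the highest vehicle array by that choice.

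Of 36 NRF2 targets measured, 19 rose and 1 fell, with a median difference of 0.54 beside -0.01 over all genes and 6.93% of all genes called higher. Beside those above, SRXN1, which repairs over-oxidized peroxiredoxin, rose 2.08-fold (1.06 ± 0.16), and GCLC, the catalytic partner of GCLM, 1.67-fold (0.74 ± 0.24, adjusted p 0.0360). GCLC passed in only 1 of the 6 fits that each left out one array. The catalytic subunit of glutathione synthesis thus had a smaller difference than its modifier, 0.74 beside 1.83, a gap that was not tested. Chosen after their values were seen, PIR (1.04), ME1 (0.73) and GSR (0.64) rose, KEAP1 itself rose by 0.49, and NFE2L2, which encodes NRF2, differed by 0.15 without passing. The 1 member that fell was ABCC3, an organic anion exporter (-0.99). When only the 6 compared arrays entered the fit, 10 of the 36 rose and 1 fell, or 23 and 1 with the replicate block added.

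Promoters of some genes that passed are shown because the response elements named above are short letter patterns that can be looked for. Each promoter shown holds a match, which most promoters do not. Each run is the RefSeq GRCh38.p14 sequence from 250 bases before to 50 bases after an annotated start, 5′ to 3′ on the gene's strand. A single start was kept for each gene, so any other annotated starts were not searched. Which start these cells use was not tested. The antioxidant response element core was searched as TGACNNNGC and the paired heat shock element as GAANNTTC, both on either strand. Capitals mark the antioxidant core in GCLM (chr1:93909381-93909680, minus strand), TXNRD1 (chr12:104215529-104215828, plus strand), the proteasome gene PSMD12 (chr17:67366528-67366827, minus strand) and SCEL (chr13:77535456-77535755, plus strand), a gene that fell. They mark the heat shock pair in CHORDC1 (chr11:90223000-90223299, minus strand).
GCLM: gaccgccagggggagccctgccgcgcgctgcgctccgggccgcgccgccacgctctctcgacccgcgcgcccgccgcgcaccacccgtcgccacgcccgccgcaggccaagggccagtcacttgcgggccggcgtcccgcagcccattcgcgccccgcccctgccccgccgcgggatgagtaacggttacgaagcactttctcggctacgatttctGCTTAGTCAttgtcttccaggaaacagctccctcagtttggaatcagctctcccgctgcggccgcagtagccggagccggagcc
TXNRD1: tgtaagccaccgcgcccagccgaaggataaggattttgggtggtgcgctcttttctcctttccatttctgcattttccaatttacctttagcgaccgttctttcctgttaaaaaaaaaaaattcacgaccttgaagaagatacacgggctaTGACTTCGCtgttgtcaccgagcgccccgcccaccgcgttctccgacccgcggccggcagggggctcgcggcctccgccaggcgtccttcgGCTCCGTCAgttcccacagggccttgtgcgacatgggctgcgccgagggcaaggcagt
PSMD12: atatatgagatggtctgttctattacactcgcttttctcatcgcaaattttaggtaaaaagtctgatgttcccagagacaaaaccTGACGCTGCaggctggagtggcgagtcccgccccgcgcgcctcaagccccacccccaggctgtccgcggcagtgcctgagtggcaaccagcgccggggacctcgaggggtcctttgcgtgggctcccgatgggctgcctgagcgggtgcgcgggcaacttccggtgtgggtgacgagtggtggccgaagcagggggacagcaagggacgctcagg
CHORDC1: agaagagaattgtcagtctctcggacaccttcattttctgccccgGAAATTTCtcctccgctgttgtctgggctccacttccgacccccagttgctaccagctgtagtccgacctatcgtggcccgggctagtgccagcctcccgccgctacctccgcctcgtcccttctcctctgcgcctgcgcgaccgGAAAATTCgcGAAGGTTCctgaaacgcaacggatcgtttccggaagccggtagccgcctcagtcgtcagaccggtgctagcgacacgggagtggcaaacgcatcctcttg
SCEL: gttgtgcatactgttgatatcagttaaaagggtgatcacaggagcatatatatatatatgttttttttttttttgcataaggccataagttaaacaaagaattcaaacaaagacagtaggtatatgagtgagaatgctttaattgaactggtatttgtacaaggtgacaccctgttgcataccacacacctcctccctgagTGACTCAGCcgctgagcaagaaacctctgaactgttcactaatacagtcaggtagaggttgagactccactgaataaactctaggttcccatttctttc

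The antioxidant core was found in 13.5% of 27305 promoters, in 15.3% of those of the genes tested, in 18.6% of those that rose and in 13.8% of those that fell. Of the 12 largest rises 10 had a promoter in the table and 1 held the core, GCLM. Of the 12 largest falls 11 had one and 2 held it, SCEL and TNS2. Among the NRF2 targets that rose, 7 of 16 promoters held the core. The promoters of NQO1, TRIM16, SRXN1 and GCLC did not. The heat shock pair was found in 6.96% of all promoters, 4.86% of those tested, 5.53% of those that rose and 3.94% of those that fell. Among heat shock genes that rose it stood in 6 of 12 promoters, 3 times in that of CHORDC1, but not in those of HSPH1 and ZFAND2A. HMOX1 and SLC7A11 are named only, having no entry in the promoter table, and no match in a window says only that these letters are not in these bases. An E-box (CACGTG) was searched as well and stood in 7.27% of all promoters, 10.4% of those tested, 14.4% of those that rose and 8.02% of those that fell. The carbohydrate response element, a spaced pair of E-boxes, stood in 2 promoters of 27305. None of these shares was tested.

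Of 22 heat shock genes measured, most of them chaperones of the cytosol, 13 rose and 0 fell, beside 6.93% and 8.28% of all genes. There were 0 falls also at an unadjusted p under 0.05 and with the replicate block (limma). The median difference was 0.46. The HSP70 genes HSPA1A, HSPA1B and HSPA8 were not among the 22, so the count does not speak for them. HSPA6 did not pass and had a mean of 2.46 in both groups, under the floor (0.01 ± 0.15). HSPA1L also lay under the floor without passing, at a mean of 2.95 in low Kbr cells and 2.87 in vehicle cells. CHORDC1, the co-chaperone shown above, stood at 10.34, 10.40 and 10.58 in low Kbr cells, against 8.89, 9.02 and 9.49 in vehicle cells (2.48-fold, adjusted p 1.18e-06). HSPH1, which recharges HSP70 with nucleotide, stood at 11.90, 12.00 and 11.87 in low Kbr cells, against 10.65, 10.86 and 10.97 in vehicle cells (1.09 ± 0.10, 2.14-fold, adjusted p 2.63e-08). The groups of both genes are well separated. ZFAND2A, a proteasome-associated zinc finger protein induced by arsenite, rose 2.26-fold (1.18 ± 0.22, adjusted p 0.000745). DNAJB1, an HSP40 that feeds clients to HSP70, rose 1.68-fold (0.75 ± 0.22, adjusted p 0.0180), a call lost without low Kbr replicate 3 or vehicle replicates 1 or 2. With only the compared arrays in the fit 6 of the 22 rose, and 16 with the block added.

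Of 19 chaperones and related genes of the endoplasmic reticulum measured, 0 passed in either direction with limma, 0 passed an unadjusted p under 0.05 and 0 passed with the replicate block. Their median difference was -0.05. HSPA5, the main chaperone of that compartment, stood at 13.22, 13.14 and 13.18 in low Kbr cells, against 12.93, 12.79 and 13.26 in vehicle cells. These overlap (0.18 ± 0.28, adjusted p 0.740). The largest difference in the list was that of DNAJB11, a co-chaperone of HSPA5, at 0.30 ± 0.23 (adjusted p 0.431).

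Of 35 ATF4 targets and amino acid response genes, 2 rose and 1 fell, beside 6.93% and 8.28% of all genes. With the replicate block 4 rose and 2 fell, beside 10.5% and 14.0%, and the median difference was 0.06. SLC3A2 and ATF4 itself (0.41 ± 0.09, adjusted p 0.00269) rose. CBS, which makes cystathionine from homocysteine, fell 2.13-fold and stood at 7.38, 6.99 and 7.16 in low Kbr cells, against 8.57, 7.94 and 8.30 in vehicle cells (-1.09 ± 0.24, adjusted p 0.00270). The stress response genes ATF3 (0.62 ± 0.69), DDIT3 (0.41 ± 0.58), ASNS (0.07 ± 0.41) and TRIB3 (0.11 ± 0.22) did not pass.

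Protein breakdown genes rose in small steps, in counts to be set beside the 6.93% of all genes called higher. Of 27 proteasome subunits, 17 rose and 0 fell, with 0 falls also unadjusted and with the block, and a median of 0.30. PSMD12, of the regulatory lid, stood at 11.20, 11.46 and 11.56 in low Kbr cells, against 10.37, 10.69 and 10.86 in vehicle cells (0.76 ± 0.15, 1.70-fold, adjusted p 0.00101). PSMC4, an ATPase of the base, rose by 0.60 ± 0.14 and PSMD3 by 0.59 ± 0.19. The differences were positive in all 27 subunits measured, yet small enough that the count depended on single arrays. It was 7 without low Kbr replicate 2, 4 without low Kbr replicate 3, 5 without vehicle replicate 1 and 11 without vehicle replicate 2. With only the compared arrays 0 of 27 passed, and 19 with the replicate block added to that fit. SQSTM1, which ferries ubiquitinated cargo to autophagosomes and is also an NRF2 target, rose 2.37-fold (1.24 ± 0.16, adjusted p 7.43e-06). Of 22 lysosome and autophagy genes, SQSTM1, GABARAPL1 (0.54 ± 0.13) and the galactosidase GLA (0.51 ± 0.10) rose, none fell, and the median was -0.05.

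Ribosome assembly and mitosis genes also rose, again beside 6.93% of all genes called higher. Of 15 ribosome biogenesis genes, 8 rose and 0 fell (0 unadjusted, 0 with the block), with a median of 0.41. UTP15, of the small subunit processome, rose 1.94-fold (0.96 ± 0.16, adjusted p 0.000290), NOP16 1.53-fold (0.61 ± 0.13) and WDR43 1.44-fold (0.53 ± 0.16). Without vehicle replicate 1 the count was 5. It was 1 with only the compared arrays and 11 with those arrays and the block. Of 36 G2/M and mitosis genes, 11 rose and 0 fell (0 unadjusted, 0 with the block), with a median of 0.32. CCNB1, the cyclin of mitotic entry, stood at 12.99, 13.03 and 13.02 in low Kbr cells, against 12.28, 12.31 and 12.68 in vehicle cells (0.59 ± 0.11, adjusted p 0.000936). UBE2C, which loads ubiquitin for the anaphase-promoting complex, rose by 0.65 ± 0.15, KIF23 by 0.66 ± 0.19, BIRC5 by 0.62 ± 0.16 and CDK1 by 0.51 ± 0.16. The mitosis count was 22 with the replicate block. It was 5 without low Kbr replicate 3, 5 without vehicle replicate 1 and 5 without vehicle replicate 2. With only the compared arrays the mitosis count was 0, and 16 with those arrays and the block.

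Of 35 DNA replication genes 3 rose and 5 fell, beside 6.93% and 8.28% of all genes, with a median of -0.12. With only the compared arrays 1 rose and 1 fell, or 4 and 6 with the block added. MCM10, a DNA replication factor, rose by 0.69 ± 0.18 and CLSPN, a checkpoint adaptor, by 0.59 ± 0.18 (2 of its 3 probe sets share that sign). POLA1, the catalytic subunit of primase-polymerase, fell by 0.66 on the log2 scale. Of 19 base excision repair genes, 3 rose and 2 fell, beside the same 6.93% and 8.28% of all genes. NEIL3, a glycosylase for oxidized bases, stood at 9.62, 9.44 and 9.59 in low Kbr cells, against 8.21, 8.49 and 8.52 in vehicle cells (1.14 ± 0.22, 2.21-fold, adjusted p 0.00107). The thymine glycosylase TDG rose by 0.55 ± 0.09 and the strand-break processor APTX by 0.54 ± 0.09. OGG1, the glycosylase for 8-oxoguanine, differed by 0.05 ± 0.20 (adjusted p 0.927).

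Of 28 p53 targets 4 rose and 3 fell, beside 6.93% and 8.28% of all genes (median 0.08). With only the compared arrays 2 rose and 1 fell, or 7 and 5 with the block added. PMAIP1, a BH3-only inducer of apoptosis, stood at 10.68, 10.98 and 11.58 in low Kbr cells, against 9.39, 10.00 and 10.40 in vehicle cells. Its groups do not overlap and its replicates differ in level, replicate 3 being highest in both (1.15 ± 0.20, 2.22-fold, adjusted p 0.000382). GDF15, a secreted stress cytokine, rose 1.84-fold (0.88 ± 0.19, adjusted p 0.00250) and CDKN1A, the cell cycle inhibitor p21, 1.55-fold (0.63 ± 0.10, adjusted p 0.000141). MDM2, which ubiquitinates p53, differed by 0.45 ± 0.16 and passed only with the replicate block (adjusted p 0.0578 without it, 0.0251 with it). DDB2, a sensor of ultraviolet damage, stood at 6.94, 6.69 and 6.61 in low Kbr cells, against 8.20, 7.89 and 7.66 in vehicle cells. It fell 2.25-fold with no overlap (-1.17 ± 0.20, adjusted p 0.000211). Of 14 apoptosis regulators, PMAIP1 rose and MCL1, a survival factor, fell by 0.35 on the log2 scale.

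The largest falls were those of VCAM1, ENPP3, SCEL, TXNIP and PPL. VCAM1, an adhesion molecule that marks injured tubule cells in the kidney, stood at 4.35, 4.29 and 4.95 in low Kbr cells, against 6.70, 6.93 and 6.98 in vehicle cells. It had the largest fall, 5.06-fold (-2.34 ± 0.28, adjusted p 2.81e-06). SCEL, sciellin of the cornified envelope, stood at 7.90, 8.07 and 7.22 in low Kbr cells, against 10.00, 10.60 and 9.38 in vehicle cells. Replicate 3 of SCEL was the lowest of both groups (-2.26 ± 0.31, 4.78-fold lower, adjusted p 1.46e-05). PPL, periplakin, which ties desmosomes to keratin, stood at 4.16, 4.49 and 4.33 in low Kbr cells, against 6.30, 6.75 and 6.37 in vehicle cells. It had the smallest adjusted p of the named falls (-2.15 ± 0.17, 4.44-fold lower, adjusted p 4.42e-09).

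TXNIP, the thioredoxin-binding protein that also curbs glucose uptake, stood at 6.51, 7.07 and 7.39 in low Kbr cells, against 9.11, 9.64 and 8.80 in vehicle cells. It fell 4.57-fold (-2.19 ± 0.43, adjusted p 0.00107), opposite in direction to TXNRD1. RUNX2, a transcription factor of bone and mesenchyme, fell 3.68-fold (-1.88 ± 0.32) and EVL, which lengthens actin filaments, 3.69-fold (-1.88 ± 0.39). TNS2, a focal adhesion protein, fell 3.16-fold (-1.66 ± 0.24), ENDOD1 4.02-fold (-2.01 ± 0.31) and DIPK1B 3.50-fold (-1.81 ± 0.41). EVL spread widely between replicates, at 5.66, 3.93 and 4.88 in low Kbr cells, against 7.85, 5.67 and 6.60 in vehicle cells. These falls were chosen for groups that do not overlap, and for EVL the highest low Kbr array lay barely below the lowest vehicle array.

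In 37 of the 157 falls of 2-fold or more the low Kbr mean lay under the level of 4 taken as the floor, so their fold is a lower bound. ENPP3, an ectonucleotide pyrophosphatase, was at least 4.65-fold lower in low Kbr cells (-2.27 ± 0.52). AQP3, a water and glycerol channel, was at least 3.96-fold lower (-2.09 ± 0.44), and DISP2 at least 2.43-fold lower (-1.85 ± 0.19). AQP3 stood at 4.23, 4.26 and 3.21 in low Kbr cells, against 6.40, 6.79 and 4.76 in vehicle cells, so replicate 3 was the lowest of both groups. Of the 35 rises of that size only 1 had a vehicle mean under the floor.

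**Figure D3:**
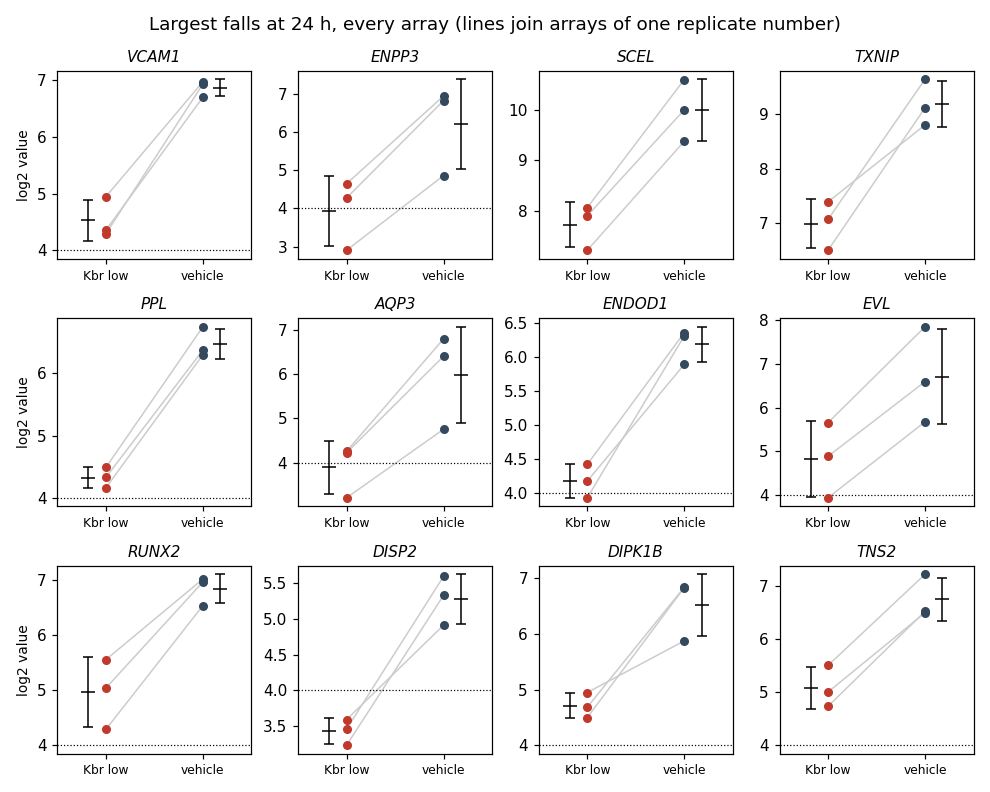
Log2 expression of the 12 largest falls, low Kbr arrays left of vehicle arrays for each gene, 1 point an array, lines joining arrays of one replicate number, and the mean ± SD of 3 beside them; a dotted line marks the floor of 4 where values come near it. For ENPP3, AQP3 and DISP2 the low Kbr mean lies under the floor of 4. Genes were chosen for arrays that do not overlap, so each highest low Kbr array lies below the lowest vehicle array by that choice.

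Genes of epithelial identity leaned down. Of 14 keratin and junction genes, 6 fell and 0 rose (0 unadjusted and 0 with the block, which called 10 falls), with a median of -0.54 beside -0.01 over all genes and 8.28% called lower. CDH1, E-cadherin, stood at 5.52, 5.47 and 6.34 in low Kbr cells, against 7.39, 7.01 and 7.58 in vehicle cells. It fell 2.93-fold (-1.55 ± 0.25, adjusted p 0.000178). KRT19 fell 1.82-fold (-0.86 ± 0.15, adjusted p 0.000439) and KRT80 1.95-fold (-0.96 ± 0.21). The main keratin pair of simple epithelium did not pass, KRT8 at -0.56 and KRT18 at -0.17, although KRT8 passed with the block (adjusted p 0.000198). Both were named after their values were seen. With only the compared arrays 3 of the 14 fell, and 9 with the block added.

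Of the 7 proximal tubule markers that could be measured, 3 fell, 6 with the block, and none rose. Of all genes 8.28% were called lower, 14.0% with the block. SLC3A1, a chain of the dibasic amino acid and cystine carrier, stood at 7.30, 6.88 and 6.69 in low Kbr cells, against 8.79, 8.47 and 7.55 in vehicle cells (-1.31 ± 0.26, 2.48-fold lower, adjusted p 0.00129). CLDN2, the tight junction channel of the proximal tubule, fell 1.76-fold (-0.82 ± 0.23, adjusted p 0.0146) and CDH6 1.57-fold (-0.65 ± 0.22, adjusted p 0.0446). The count was 1 without low Kbr replicate 3 and 1 without vehicle replicate 1, and 5 without vehicle replicate 3. It was 1 with the Kbr set alone, 0 with only the compared arrays and 7 with those arrays and the block. Of 14 distal nephron markers 3 were measured, and AQP3 and SCNN1A fell. The stromal list gave 2 of 18 measured, DCN and LUM, whose levels summed on the linear scale came, as log2, to 11.48 to 11.96 in low Kbr cells and 12.09 to 12.58 in vehicle cells. DCN, decorin, fell 1.68-fold (-0.75 ± 0.15, adjusted p 0.00130) and was bright in both groups. The part of these markers in the other falls was not tested.

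Among 16 kidney injury markers 3 fell and 0 rose, beside 8.28% and 6.93% of all genes (1 higher at an unadjusted p under 0.05, 2 with the block). HAVCR1, known as KIM-1 and the best known urinary marker of tubule damage, stood at 10.39, 10.41 and 10.82 in low Kbr cells, against 11.05, 11.30 and 11.07 in vehicle cells (-0.60 ± 0.16, 1.52-fold lower, adjusted p 0.0128). The groups do not overlap, and the call was lost without low Kbr replicates 1 or 2 or vehicle replicate 2. VCAM1 and KRT19 were the others that fell. LCN2, or NGAL, differed by -0.05 ± 0.13 at a mean under the floor in both groups.

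Matrix genes fell, 7 of 19 beside 8.28% of all genes, with 0 rises (0 unadjusted, 1 with the block) and a median of -0.43. COL1A1, a fibrillar collagen chain, stood at 7.72, 6.99 and 7.14 in low Kbr cells, against 8.92, 8.52 and 8.43 in vehicle cells (-1.34 ± 0.22, 2.53-fold lower, adjusted p 0.000200). SMAD7, the feedback inhibitor of TGF-beta signalling, fell 1.64-fold (-0.71 ± 0.16, adjusted p 0.00379) and INHBA, an activin chain, 2.05-fold (-1.04 ± 0.35, adjusted p 0.0464). INHBA passed in none of the 6 fits without one array. The list's count was 3 without vehicle replicate 1, 4 without vehicle replicate 3 and 4 without low Kbr replicate 2. It was 1 with only the compared arrays and 12 with those arrays and the block.

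Sterol synthesis genes fell, 5 of 19 measured (9 with the block), beside 8.28% of all genes (14.0% with the block). There were 0 rises (0 unadjusted, 0 with the block), and the median was -0.28. TM7SF2, a sterol reductase, fell 2.24-fold (-1.16 ± 0.22, adjusted p 0.000901), LSS, lanosterol synthase, 1.47-fold (-0.56 ± 0.11, adjusted p 0.00128) and SQLE, squalene epoxidase, 1.32-fold (-0.40 ± 0.10, adjusted p 0.00590, 3 of its 4 probe sets in that direction). None of the 19 passed with only the compared arrays, and 11 fell with those arrays and the block. Metallothioneins bind zinc and cadmium. Of 11 metallothionein and zinc response genes, 2 fell (5 with the block), beside the same shares of all genes, and 0 rose (0 unadjusted, 0 with the block). MT1F fell by 0.43 on the log2 scale and MT1E by 0.36. MT2A stood at 14.16, 14.10 and 14.23 in low Kbr cells, against 14.42, 14.37 and 14.48 in vehicle cells, without overlap but also without passing (-0.26 ± 0.12, adjusted p 0.157). The count of 2 was 0 without low Kbr replicates 1 or 2 or vehicle replicates 1 or 3, and 1 without low Kbr replicate 3. It was 0 with only the compared arrays and 8 with those arrays and the block.

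Of 24 immediate early genes 3 rose and 2 fell, shares not far from the 6.93% and 8.28% of all genes. With the block 5 rose and 4 fell, with only the compared arrays 0 and 1, and with those arrays and the block 5 and 4. DUSP5, a phosphatase for ERK, rose 1.85-fold (0.89 ± 0.16, adjusted p 0.000642) and JUN 1.72-fold (0.79 ± 0.17, adjusted p 0.00291). EGR1, a serum-response zinc finger factor, fell and stood at 10.13, 10.31 and 10.27 in low Kbr cells, against 10.87, 11.20 and 11.01 in vehicle cells (-0.79 ± 0.15, 1.73-fold lower, adjusted p 0.00107). Of 16 interferon-stimulated genes 1 rose, IFIT3 (0.59 ± 0.13, adjusted p 0.00239), and 0 fell (1 lower at an unadjusted p under 0.05). Of 19 NF-kB targets and cytokines 1 fell, TNFAIP3, which edits ubiquitin in that pathway (-0.82 ± 0.28, adjusted p 0.0483), and 0 rose (0 unadjusted). The counts of these lists too stand beside 6.93% of all genes higher and 8.28% lower.

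Energy genes moved little, in counts to be set beside 6.93% of all genes called higher and 8.28% lower. Of 26 glycolysis and hypoxia genes 2 rose, ADM and the glucose carrier SLC2A1 (0.44 ± 0.13, adjusted p 0.0212), and 1 fell, EGLN3 (-1.04 ± 0.35, adjusted p 0.0436). Of 29 respiratory chain genes 1 fell, UQCRC2, by 0.23 on the log2 scale, with a list median of -0.09. Of 8 reference genes 0 passed with limma (1 lower at an unadjusted p under 0.05, SDHA at -0.20 ± 0.07, which passed with the block at an adjusted p of 0.0383), and their median was -0.04.

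**Figure D4:**
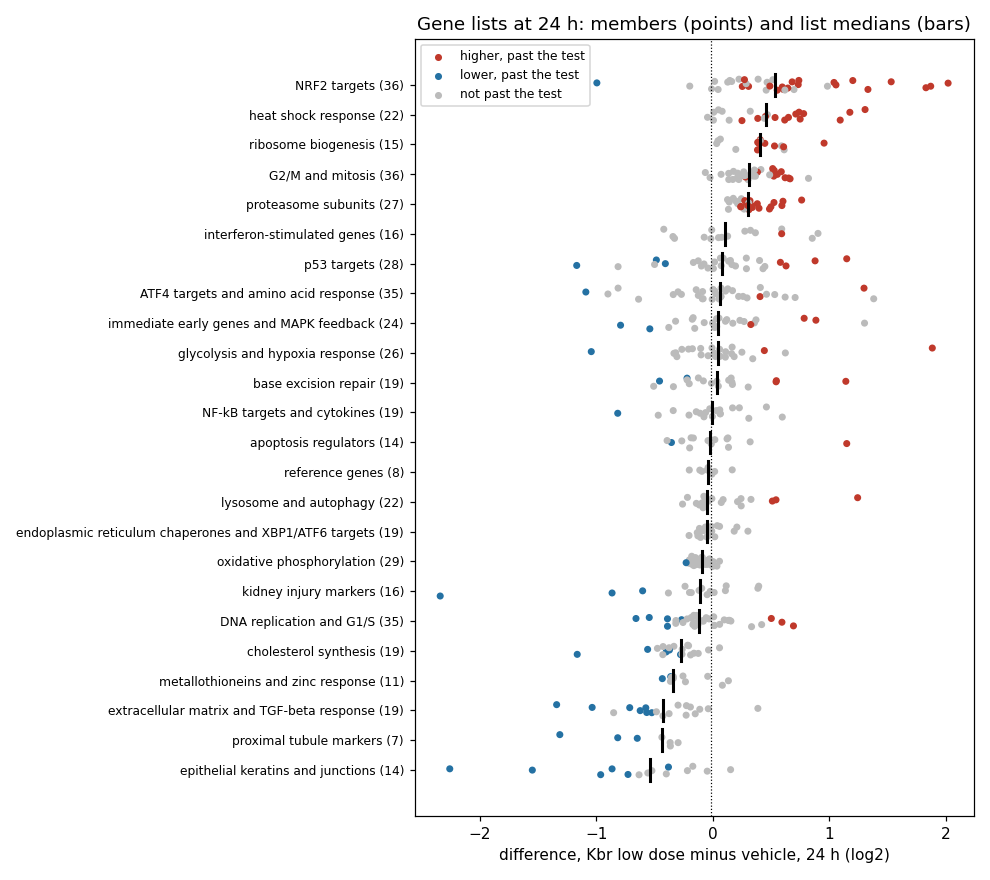
Low Kbr minus vehicle at 24 h in log2 units (horizontal) for each measured member (points) of the gene lists (number measured in brackets), with a bar at each list's median and a dotted line at the median of all genes, -0.01. Red and blue points passed upward and downward at an adjusted p under 0.05. Lists with fewer than 7 measured members are not drawn. The medians drawn run from 0.54 for NRF2 targets at the top to -0.54 for keratins and junctions at the bottom.

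At 24 h high and low Kbr share their vehicle arrays, so the doses were compared directly, high minus low. Of 11092 genes 487 passed (4.39%), 76 higher (0.685%) and 411 lower (3.71%) at the high dose, 1171 with the replicate block. Of the 88 named genes that had passed at the low dose, 23 were farther from vehicle at the high dose by this test. On the way back 0 were past it. The 4 largest differences each way were named by this same test, so 23 is not a share to set beside the 4.39% of all genes. HMOX1 was a further 1.43 ± 0.19 higher (adjusted p 6.78e-05), with differences from vehicle of 3.45 at high and 2.02 at low dose. ZFAND2A added 0.98 ± 0.22, GPAT3 0.92 ± 0.21, ADM 0.80 ± 0.21, GCLM 0.63 ± 0.15, TXNRD1 0.56 ± 0.11, IFIT3 0.59 ± 0.13 and HSPH1 0.49 ± 0.10.

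The steepest additional falls were those of HLF, a circadian output factor (-1.55 ± 0.27), HOGA1, of hydroxyproline breakdown in mitochondria (-1.51 ± 0.31), CFAP300, of cilia (-1.48 ± 0.25), and NFE2L3, a relative of NRF2 (-1.43 ± 0.30). CBS was a further 1.21 ± 0.24 lower and EGR1 a further 1.08 ± 0.15 lower. EGR1 differed from vehicle by -1.87 at the high dose and by -0.79 at the low dose. ALMS1-IT1, a transcript within ALMS1, was 0.99 ± 0.26 higher at the high dose and at the low dose differed from vehicle by 0.21 without passing.

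Some genes gave nearly the same difference at both doses. CDKN1A differed between doses by -0.02 ± 0.10 (adjusted p 0.976), ZSCAN31 by 0.03 ± 0.17, UTP15 by 0.10 ± 0.16, DISP2 by -0.09 ± 0.19 and TRIM16 by 0.27 ± 0.14 (adjusted p 0.312). NQO1 was 0.31 ± 0.13 higher at the high dose without passing (adjusted p 0.171). These standard errors leave room for small differences between the doses either way. Of the 22 heat shock genes 7 were higher at the high dose and of the 36 NRF2 targets 5, beside 0.685% of all genes. Of the 14 keratin and junction genes 3 were lower, beside 3.71% of all genes. The count of 487 was 246, 311 and 305 without high Kbr replicates 1, 2 and 3, and 196 and 299 without low Kbr replicates 1 and 2.

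At 48 h low Kbr was set against vehicle arrays of that time, and 5212 genes passed (47.0%), 2642 higher and 2570 lower. Of the 769 rises at 24 h, 723 (94.0%) passed upward at 48 h, where 23.8% of all genes did, and they make up 27.4% of the later rises. Of the 918 falls 832 (90.6%) passed downward, where 23.2% of all genes did, and they make up 32.4% of the later falls. Of these genes 0 passed in the opposite direction. No array was shared between the times, although same-numbered arrays of the Kbr set deviated together.

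The change between times was tested directly as the 48 h difference minus the 24 h difference, and 482 genes passed (4.35%), 282 upward (2.54%) and 200 downward (1.80%). This count moved with the fit more than any other here. It was 1243 with the replicate block, 5 with only the compared groups, 567 with those groups and the block, and 6 with the Kbr set alone. It was 149 and 252 without low 24 h replicates 1 and 2, 110 without vehicle 24 h replicate 3, 217, 217 and 949 without low 48 h replicates 1, 2 and 3, and 226 and 279 without vehicle 48 h replicates 1 and 2.

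The endoplasmic reticulum chaperones that had not moved at 24 h were higher at 48 h. Of the 19, 15 passed upward at 48 h, beside 23.8% of all genes, and 4 passed the test of the change upward, beside 2.54%. SDF2L1, part of a chaperone complex of that compartment, stood at 6.55, 6.93 and 6.90 in low Kbr cells at 24 h, against 6.44, 7.05 and 7.11 in vehicle cells. At 48 h it differed by 3.97, and the change was 4.05 (adjusted p 0.00402). HSPA5 differed by 0.18 at 24 h and 1.78 at 48 h (change adjusted p 0.0226), DNAJB11 by 0.30 and 1.60 (0.0236). Of the 35 ATF4 targets 20 rose and 1 fell at 48 h, beside 23.8% and 23.2% of all genes, and 4 passed the change upward. ATF3 differed by 0.62 at 24 h and 4.56 at 48 h (change adjusted p 0.0223), TRIB3 by 0.11 and 1.18 (0.0474). DDIT3, or CHOP, differed by 0.41 and 3.04, and its change passed only with the replicate block (adjusted p 0.0643 without it, 0.0191 with it).

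Some NRF2 targets that had risen at 24 h were higher still at 48 h. Of the 36, 6 passed the test of the change upward, beside 2.54% of all genes. NQO1 differed by 1.33 at 24 h and 2.80 at 48 h (change adjusted p 3.78e-05), and TRIM16, TXNRD1 and GCLC were among the others. HMOX1 differed by 2.02 and 2.90, and its change passed only with the block (adjusted p 0.0617 without it, 0.00969 with it). GPAT3 (1.62 and 1.93), ZSCAN31 (1.43 and 1.16), DGKG (1.41 and 1.49), TDG (0.55 and 0.64), UBE2C (0.65 and 0.75) and RUNX2 (-1.88 and -1.80) had nearly the same difference at both times, and the change did not pass for any of them. Falls that deepened past the test were those of EFEMP1, a matrix glycoprotein (-1.56 at 24 h and -3.93 at 48 h, change adjusted p 0.000330), SCEL (-2.26 and -3.96) and FXYD6 (-0.82 and -2.94). GJA1, connexin 43 (-0.78 and -2.82), and BLNK (-1.02 and -3.84) had not passed at 24 h, GJA1 only with the block (adjusted p 0.00163), and their change passed downward.

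A few genes that passed at 24 h did not pass at 48 h. INHBA differed by -1.04 at 24 h and -0.22 at 48 h, SMAD7 by -0.71 and -0.10, IFIT3 by 0.59 and 0.13 and DNAJB1 by 0.75 and 0.49. Their change did not pass either (adjusted p 0.393, 0.122, 0.139 and 0.725), although SMAD7 and IFIT3 passed it with the block (adjusted p 0.0466 and 0.0458).

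**Figure D5:**
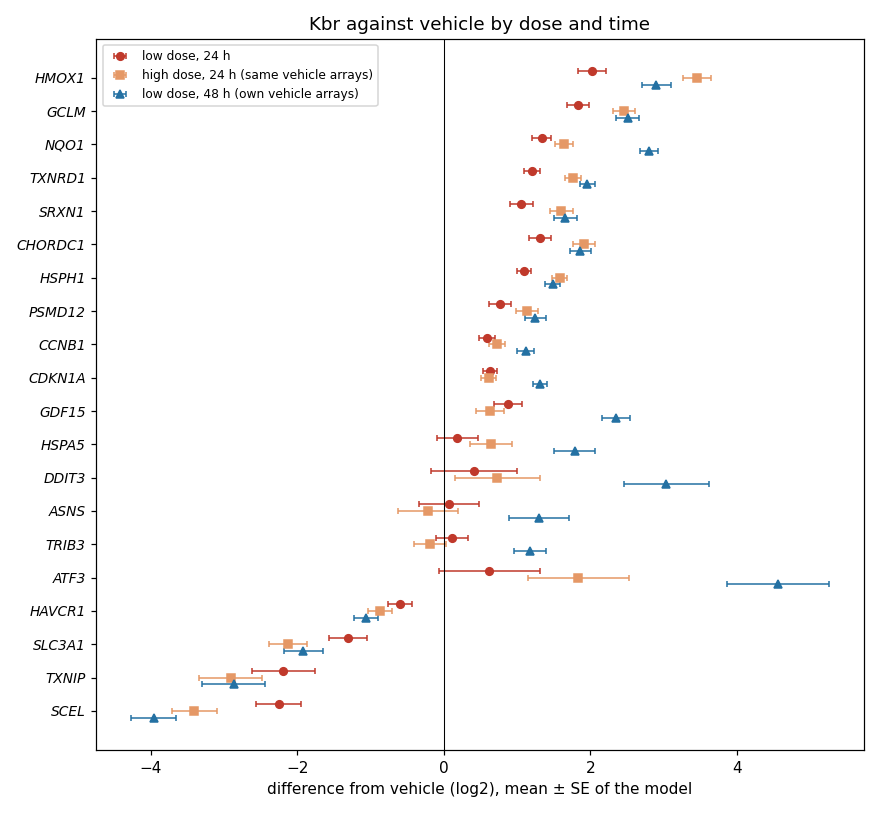
Difference from vehicle in log2 units (horizontal, mean ± SE of the model) for 20 genes at low dose and 24 h, high dose and 24 h (same vehicle arrays), and low dose and 48 h (own vehicle arrays). HSPA5, DDIT3, ASNS, TRIB3 and ATF3 lie between 0.07 and 0.62 at low dose and 24 h, without passing, and between 1.18 and 4.56 at 48 h, while HMOX1 lies at 2.02, 3.45 and 2.90.

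With the other compounds of the series, which have vehicle arrays of their own, the overlap was partial. Of the 769 rises 240 (31.2%) passed upward with CdCl at 12 h (16.2% of its 1484 rises), 321 (41.7%) with CdCl at 48 h (14.0% of 2292), 52 (6.76%) with Di at 12 h (28.1% of 185) and 376 (48.9%) with Di at 48 h (17.7% of 2122). The shares of all genes rising in those comparisons were 13.4%, 20.7%, 1.67% and 19.1%. Opposite calls were met in 142, 99, 10 and 81 of the 769. Of the 918 falls 480, 365, 119 and 504 passed downward in the same 4 comparisons, which called 30.5%, 22.0%, 4.60% and 23.9% of all genes lower, and 68, 113, 11 and 81 passed upward.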

How the data were processed

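The values are log2 expression per probe set, deposited by the authors in the series matrix and made with GCRMA, per the submitters' processing notes. Which version and options were used is not given in the sources used here. GCRMA corrects background by probe sequence and normalizes between arrays, which compresses differences of dim genes and removes part of a shift shared by most genes. Groups, times and replicate numbers came from the sample descriptions. Of 54675 probe sets, 23599 (controls left out) exceeded a log2 level of 4 on 3 or more arrays, and 20444 of those had 1 gene in the platform annotation. The probe set with the highest mean stood for its gene, leaving 11092 genes. All 36 arrays entered one limma 3.58.1 model (R 4.3.3, lmFit and eBayes) with 12 group means and Benjamini-Hochberg adjustment at 0.05. Before use, the tests were checked on simulated arrays: of 11092 genes, 139 were called, 4 of them falsely, and 28.4%, 74.6% and 100% of genes changed by 0.5, 1 and 2 were recovered. The simulated noise was independent between arrays, without the shared deviations of same-numbered Kbr arrays, so the check could not cover those. Real arrays also called more, so these rates do not carry over to them.

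Replicate numbers pair the Kbr arrays on the data: deviations from group means correlated in all 45 same-number pairs (r 0.229 to 0.675), against -0.544 to 0.0123 in the other 90. Deviations within a group cancel, so the low values of the 90 follow from the positive ones of the 45 and are no separate observation. The labels do not say what a number stands for. The samples compared, the gene lists and the index genes were chosen with earlier results of these data known. Named were the index genes, the 12 largest rises and 12 largest falls past the test without overlap, the 3 largest passing members of each list (or the largest member as a value), and, for dose and time, the 4 largest each way. Under 80% of members were measured for cholesterol synthesis, NF-kB targets, interferon, ribosome biogenesis, apoptosis, matrix, proximal tubule, distal nephron and stromal markers. Promoters are RefSeq sequences of GRCh38.p14, a single annotated start for each gene, matched by symbol for 86 of 106 named genes. Alternatives were other filters, averaged probe sets, quantile or median scaling, a variance trend, smaller sets of arrays, the replicate block, array weights, and leaving out each array.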

Additional observations from a re-analysis of the deposited data

Results flagged for a closer look

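For 32 of the 106 named genes the effect of low Kbr differed between 24 h and 48 h by limma's test of the change. The change is the 48 h difference minus the 24 h difference (log2, adjusted p under 0.05 over 11092 genes). The 4 largest changes each way were named by that test, so 32 is not a share to set beside that of all genes. All 32 also passed with the replicate block. Over all genes 482 passed (4.35%). That count was 5 with only the compared groups, 567 with those groups and the block, and 1243 with the block over all arrays.

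Among stress response genes and chaperones of the endoplasmic reticulum the change was 4.05 for SDF2L1, 3.94 for ATF3, 1.60 for HSPA5, 1.30 for DNAJB11 and 1.07 for TRIB3. None of these 5 had passed at 24 h. Among redox and heat shock genes it was 1.47 for NQO1, 1.21 for GCLC, 0.95 for TRIM16, 0.76 for TXNRD1 and 1.31 for ZFAND2A. All of these had already risen at 24 h. GDF15 changed by 1.47, CDKN1A by 0.68, DUSP5 by 1.27, JUN by 0.96, ADM by 1.20, SLC2A1 by 1.03, MCM10 by 1.22 and UTP15 by 0.95, again on top of rises at 24 h. ITPKA (2.66) and CLIP4 (2.12) had not passed at 24 h.

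Downward changes were met for BLNK (-2.82) and GJA1 (-2.04), which had not passed at 24 h. Deeper falls than at 24 h were those of EFEMP1 (-2.37), FXYD6 (-2.12), SCEL (-1.70), HLF (-1.41), TM7SF2 (-1.24), CLDN2 (-1.12), DCN (-1.02), SCNN1A (-0.87), MT1F (-0.83) and MCL1 (-0.51). For SCNN1A only 1 of its 2 probe sets fell at 24 h. The 24 h calls of CLDN2, FXYD6, SCNN1A, MT1F, MCL1, GCLC, MCM10 and SLC2A1 were each lost in at least 1 of the fits that left out one array.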

How the results depend on the processing

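Most depended on how much of the series shared the estimate of spread and on the pairing. Low Kbr against vehicle at 24 h called 1687 genes, but 267 with only the compared groups, 933 with the Kbr set alone, 2720 with the replicate block, 2649 with the Kbr set alone and the block, and 3130 with the compared groups and the block. High minus low dose called 487, and in the same order 38, 108, 1171, 1020 and 1458. The change with time called 482, and in the same order 5, 6, 1243, 741 and 567, with 765 under array weights. Low Kbr at 48 h called 5212, and 3445 with only the compared groups. Leaving out one array gave 824 to 1882 genes, 196 to 378 for the doses, 4388 to 4963 at 48 h and 110 to 949 for the change. Quantile normalization split the dose calls into 91 higher and 254 lower, against 76 and 411 as reported, and the change into 248 and 272, against 282 and 200. Of 88 named genes past the test at 24 h, 61 passed in all 6 fits without one array and 43 with only the compared groups, while the block lost no call at 24 h. Calls lost without one array include those of MT1E, TNFAIP3, EGLN3, UQCRC2, CFAP300, NFE2L3, CDH6, WDR43, PSMD3, KIF23, BIRC5, CDK1 and CLSPN. Signs turned only in genes that had not passed. LCN2 was 0.0054 with quantile normalization and ran from -0.078 to 0.0091 when one array was left out, OGG1 from -0.020 to 0.14 and SDF2L1 from -0.29 to 0.047. Without a filter the median of the proximal tubule list was 0.01. When one array was left out, p53 targets gave 4 to 5 rises and 2 to 4 falls, DNA replication 1 to 3 rises and 3 to 5 falls, base excision repair 3 to 4 rises and 0 to 2 falls, and immediate early genes 2 to 5 rises and 1 to 2 falls. The cause of these shifts was not tested. The number of arrays, 3 a group, limits the precision, and genes near the floor have only bounds.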
